A study of Mus musculus with 21 samples.

Results

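The imprinted growth genes examined here were Nnat, Dlk1, Peg3, Plagl1 and Mest, which are expressed from the copy inherited from the father, and H19, Meg3, Grb10, Cdkn1c and Phlda2, which are expressed from the copy inherited from the mother. They were chosen by name, with earlier results of these data known. Each gene was represented by the probe set that carries its symbol alone, and by the brightest such probe set where there was more than 1. By this rule 9 of the 10 genes were measured among 22180 genes in all, 5 paternally and 4 maternally expressed. H19 was left without a value, since its 1 probe set is annotated to H19 together with the microRNA gene Mir675.

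RNA was measured in whole lungs of 21 wild-type Balb/c mouse fetuses at embryonic day 18.5, with 1 Affymetrix array per fetus. The mothers of 12 fetuses (6 males and 6 females) inhaled cigarette smoke (CS) from gestational day 2.5 to 17.5, and the mothers of 9 fetuses (5 males and 4 females) received filtered air (AIR), although the sample descriptions call these mothers untreated. The comparison asks whether smoke inhaled by the mother is followed by altered gene expression in the fetal lung. The study took 1 male and 1 female per litter and later left out 3 AIR arrays. The labels do not tie littermates to each other, so p-values that treat fetuses as independent can be too small. Whole lung holds many cell types, and fewer cells of a type cannot be told apart from less RNA per cell.

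Genomic imprinting silences 1 parental copy of a gene through DNA methylation set in the germ line at control regions rich in CG dinucleotides. Many paternally expressed genes promote fetal growth and many maternally expressed genes restrain it, and most are abundant in fetal tissues and decline after birth. Nnat encodes neuronatin, a small membrane protein of the endoplasmic reticulum, and lies inside an intron of Blcap. Dlk1 is a transmembrane protein related to the Notch ligands, and Meg3 is the long noncoding RNA made from the other parental copy of the same cluster. Peg3 and Plagl1 are zinc finger proteins that bind DNA, and Mest belongs to the hydrolases of the alpha/beta fold. Grb10 is an adaptor that dampens signalling from the insulin and insulin-like growth factor receptors, Cdkn1c inhibits cyclin-dependent kinases, and Phlda2, its neighbour on chromosome 7, restrains placental growth.

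The start sites of Nnat, Grb10 and Meg3 are shown because the values of these genes differed most clearly in the comparisons given later. Each window holds 250 bases before and 50 bases after an annotated start in the RefSeq annotation of GRCm38.p6, read 5′ to 3′ on the strand of the gene, with every CG dinucleotide in capitals. The Nnat window is chr2:157559828-157560127 on the plus strand, the Grb10 window chr11:12037371-12037670 on the minus strand and the Meg3 window chr12:109540746-109541045 on the plus strand.
Nnat: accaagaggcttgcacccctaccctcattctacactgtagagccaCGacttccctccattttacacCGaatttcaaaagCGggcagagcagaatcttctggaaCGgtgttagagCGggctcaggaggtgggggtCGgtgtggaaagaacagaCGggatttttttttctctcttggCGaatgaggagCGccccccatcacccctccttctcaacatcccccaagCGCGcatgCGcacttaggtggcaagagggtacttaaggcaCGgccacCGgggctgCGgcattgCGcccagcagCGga
Grb10: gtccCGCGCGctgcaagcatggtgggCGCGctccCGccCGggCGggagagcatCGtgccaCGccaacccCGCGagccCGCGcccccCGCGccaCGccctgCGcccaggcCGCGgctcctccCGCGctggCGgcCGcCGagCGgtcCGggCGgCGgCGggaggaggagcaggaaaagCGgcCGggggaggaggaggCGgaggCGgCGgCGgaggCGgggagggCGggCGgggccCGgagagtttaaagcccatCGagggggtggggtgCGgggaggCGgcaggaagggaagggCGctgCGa
Meg3: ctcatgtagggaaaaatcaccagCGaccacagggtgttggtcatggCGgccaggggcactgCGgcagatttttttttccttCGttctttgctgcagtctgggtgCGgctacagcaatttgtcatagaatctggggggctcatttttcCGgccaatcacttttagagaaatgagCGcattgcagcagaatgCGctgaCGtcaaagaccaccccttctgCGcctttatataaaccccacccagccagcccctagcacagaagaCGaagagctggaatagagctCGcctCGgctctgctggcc
These windows hold 17, 45 and 13 CG dinucleotides, against a median of 7 over 32851 windows of the same length. Of 12 windows found for 8 of the genes, 11 were above that median, and the Grb10 window held more CG than 98.1% of all windows, the Nnat window more than 68.6% and the Meg3 window more than 62.1%. A further start of Grb10 had 9 CG, more than 54.2% of windows. The exception was an inner start of Meg3 with 1 CG. DNA methylation was not measured on these arrays.

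Across all 21 fetuses, Nnat was the only one of the 9 measured genes past the study's threshold, which asks for a change of more than 1.2-fold together with an unadjusted p under 0.05. Of the 9 genes, 1 was higher and 0 lower in CS lungs, where 2.22% of all 40543 probe sets tested were higher and 2.19% lower. With the false discovery rate held at 10% by limma, 0 of the 9 and 0 of all probe sets passed. An unadjusted limma p was under 0.05 for 2 of the 9 genes and for 1864 of all 22180 genes. The median difference between CS and AIR was 0.09 on the log2 scale over the 9 genes and 0.00 over all genes. Each unit of this scale doubles the intensity.

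Nnat gave 8.06 ± 0.28 on the log2 scale (SD, n = 12) in CS lungs and 7.65 ± 0.42 (SD, n = 9) in AIR lungs. The CS values ran from 7.55 through a median of 8.14 to 8.39, and the AIR values from 6.94 through 7.61 to 8.25. The groups overlapped, but 10 of 12 CS fetuses were above the AIR mean. The difference was 0.41 (SE 0.15), a 1.33-fold change, with an exact permutation p of 0.0146 over fetuses and a limma adjusted p of 0.52 over all probe sets. It kept its direction when any 1 fetus was left out, between 0.32 and 0.49. A further Nnat probe set of lower signal was also higher in CS lungs, by 0.42 (exact permutation p = 0.00991), and 11 of 12 CS fetuses were above its AIR mean. In the numbering of the array that probe set lies among genes of the minus strand, 13 of 13 with a known strand, while Nnat is a plus-strand gene.

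The animal numbers in the labels fall into a lower range with 8 CS and 3 AIR fetuses and a higher range with 4 CS and 6 AIR fetuses, split at the widest gap between numbers. What the numbers stand for is not given, and CS and AIR fetuses are spread unevenly over the ranges, so each difference was also taken within a range. In the lower range Nnat was 6.94, 7.24 and 7.44 in the 3 AIR fetuses and from 7.64 through a median of 8.18 to 8.39 in the 8 CS fetuses. These groups did not overlap, as was the case with CS higher for 1.35% of all probe sets. The difference was 0.90 (SE 0.19), a 1.86-fold change, with a limma adjusted p of 0.031 and an exact permutation p of 0.00606, the smallest that 165 regroupings allow. It was the 1 gene of the 9 to pass the false discovery rate of 10% in this range, where 1.05% of all probe sets did. Over the alternatives the adjusted p ran from 0.0127 to 0.255. It was 0.255 without AIR male 1, the lowest of all fetuses, at a difference of 0.76, and 0.123 without AIR male 2 at 0.91. The arrays of AIR male 1 and AIR male 2 also stood high in genes of other tissues, as given below. The mean of both Nnat probe sets gave 0.63 with an adjusted p of 0.194. In the higher range Nnat was 7.55, 8.01, 8.12 and 8.23 in CS fetuses and from 7.49 through 7.91 to 8.25 in AIR fetuses, a difference of 0.11 (SE 0.18) with an exact permutation p of 0.557 for 4 against 6 fetuses. The lowest Nnat values were thus those of the AIR fetuses with lower numbers. The differences in the 2 ranges differed by 0.79 (SE 0.26, limma p = 0.0064), with an adjusted p of 0.488. The further Nnat probe set did not show this gap, with differences of 0.36 in the lower and 0.45 in the higher range, and with the mean of both probe sets the ranges differed by 0.35 (limma p = 0.206).

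**Figure D1:**
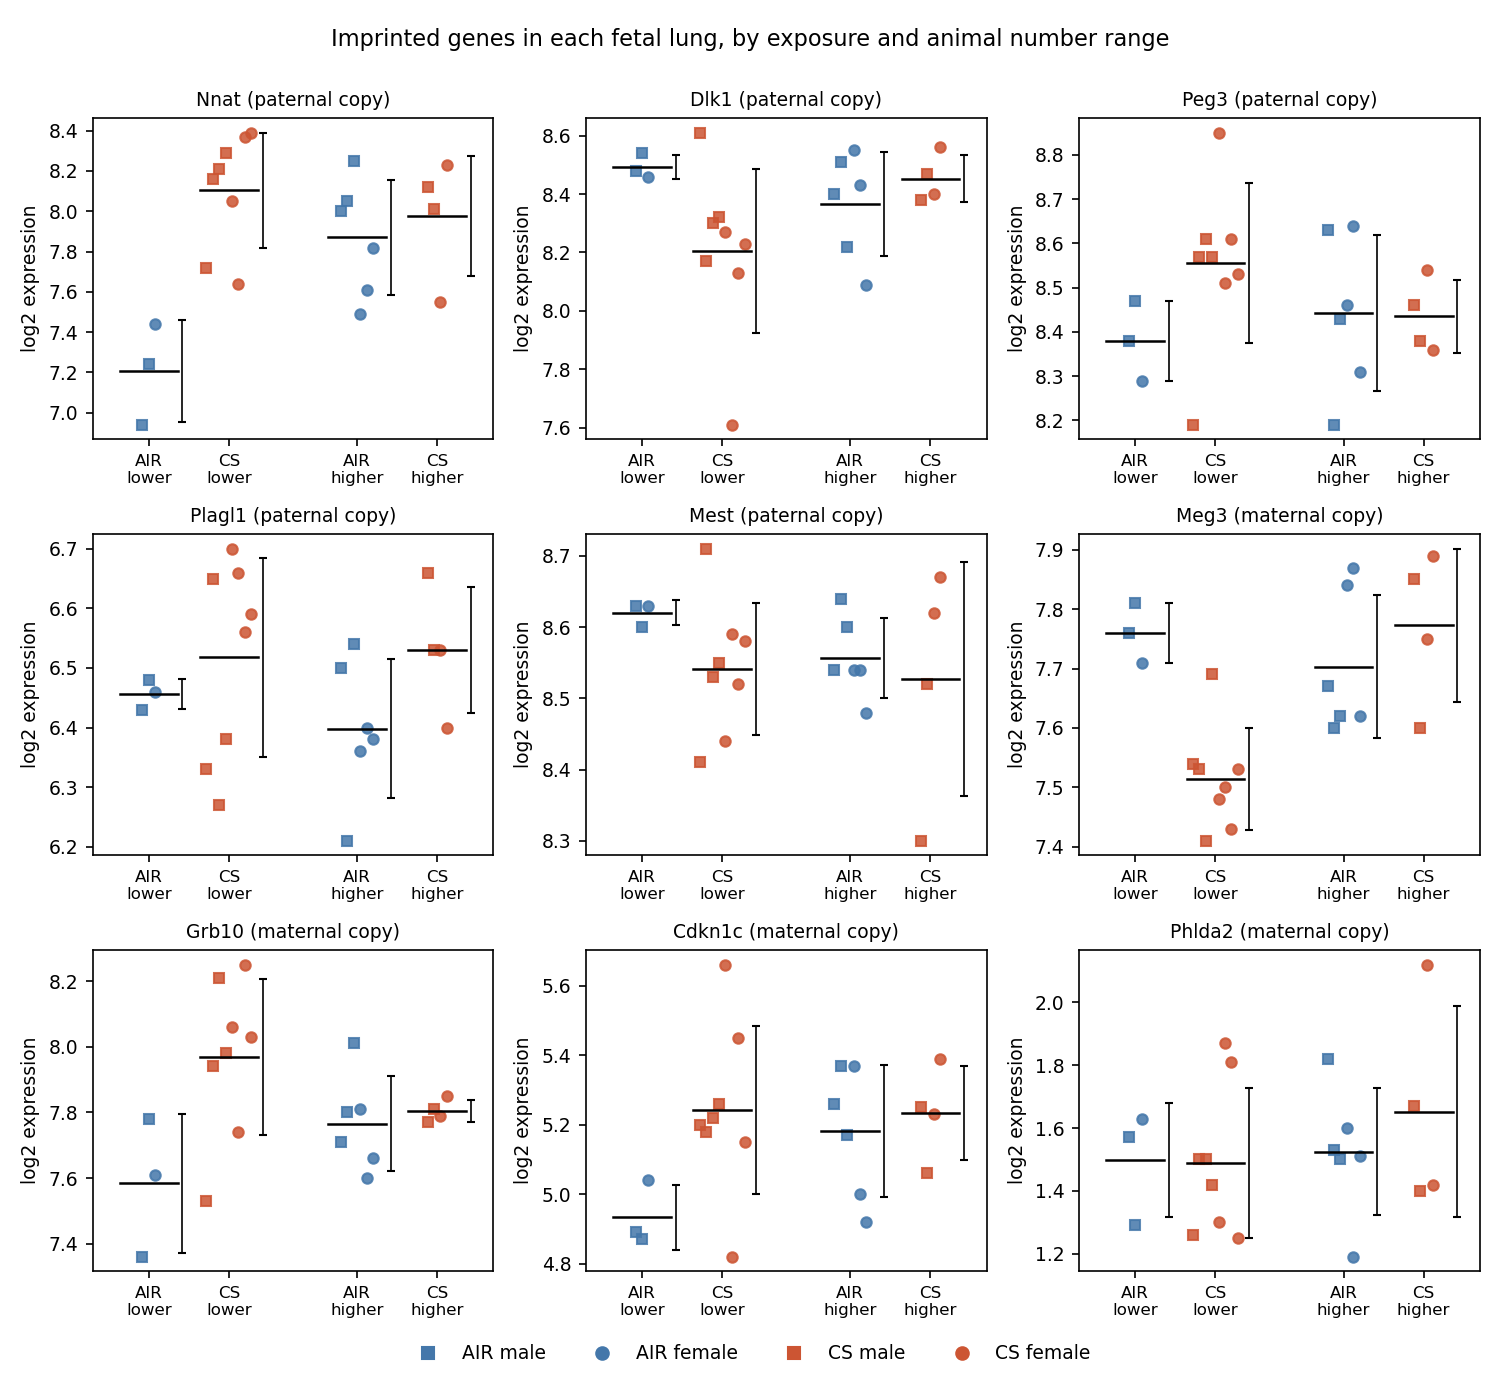
Each panel plots 1 imprinted gene, with log2 expression on the vertical axis and 1 point per fetus, squares for males and circles for females. Fetuses are grouped by exposure and animal number range, lines are means and bars ± SD. The 3 AIR fetuses with lower numbers lie below all CS fetuses of that range for Nnat and above them for Meg3.

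Among the maternally expressed genes, Grb10 came closest to the threshold over all fetuses. It was 7.91 ± 0.20 (SD, n = 12) with CS against 7.70 ± 0.18 (SD, n = 9) with AIR. The difference of 0.21 (SE 0.09) had an exact permutation p of 0.025 and 11 of 12 CS fetuses were above the AIR mean, but at 1.16-fold it missed the fold limit (limma adjusted p = 0.601). At lower animal numbers Grb10 was 7.36, 7.61 and 7.78 in AIR fetuses and from 7.53 through 8.0 to 8.25 in CS fetuses. The groups overlapped there, and the difference of 0.38 (SE 0.13) passed the threshold (exact permutation p = 0.0485, limma adjusted p = 0.286). Without AIR male 1 it was 0.27 and no longer passed. Among higher numbers the CS fetuses were at 7.77, 7.79, 7.81 and 7.85, within the AIR values of 7.60 to 8.01, and the difference was 0.04 (SE 0.13).

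Cdkn1c was 5.24 ± 0.21 (SD, n = 12) with CS against 5.10 ± 0.20 (SD, n = 9) with AIR, a difference of 0.14 (SE 0.09, exact permutation p = 0.135). At lower numbers it was 4.87, 4.89 and 5.04 in AIR fetuses and from 4.82 through 5.21 to 5.66 in CS fetuses. CS female 8 was below all AIR fetuses, and the other 7 were above all of them. That difference of 0.31 (SE 0.14) passed the threshold (limma adjusted p = 0.52), and it no longer did without any of AIR male 1, AIR male 2, CS female 7 or CS female 9, at 0.25 to 0.28, nor after adjusting for the heart muscle mean, at 0.22. The higher range gave a difference of 0.05 (SE 0.13). Phlda2 was near the bottom of the scale, with a mean of 1.53 below the array medians of 2.104 to 2.196, so that its difference of 0.03 (SE 0.10) says little about its RNA.

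In the lower range, then, 3 of the 9 genes were higher past the threshold and 0 lower, where 3.38% of all probe sets were higher and 4.87% lower. With 1 probe set per gene, 4.24% of all genes were higher and 5.67% lower. The 3 genes, Nnat, Grb10 and Cdkn1c, were compared with the same 3 AIR fetuses. In the higher range 0 of 9 passed, against 4.27% of all probe sets in either direction. The difference between the ranges passed for Nnat and Meg3, 2 of 9, against 6.75% of all probe sets, with limma adjusted p of 0.488 and 0.59.

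Dlk1 and Meg3, which lie next to each other on chromosome 12 and are expressed from opposite parental copies, were both at lower mean values in CS lungs. Meg3 was 7.60 ± 0.16 (SD, n = 12) with CS against 7.72 ± 0.10 (SD, n = 9) with AIR, a difference of -0.12 (SE 0.07) that did not pass (exact permutation p = 0.0652). At lower numbers Meg3 was 7.71, 7.76 and 7.81 in AIR fetuses and from 7.41 through 7.51 to 7.69 in CS fetuses. No value overlapped, as for 1.83% of all probe sets with CS lower in that range, and Nnat and Meg3 were the 2 genes of the 9 with such a gap. The difference was -0.25 (SE 0.09), with an exact permutation p of 0.00606 and a limma adjusted p of 0.334, but at 1.19-fold it stayed just under the fold limit, which it passed without CS male 4 or AIR female 6 at -0.27. In the higher range Meg3 was 7.60, 7.75, 7.85 and 7.89 in CS fetuses and from 7.60 to 7.87 in AIR fetuses, a difference of 0.07 (SE 0.09). The 2 ranges differed by -0.32 (SE 0.12, limma p = 0.0173, adjusted p = 0.59).

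Dlk1 was 8.29 ± 0.26 (SD, n = 12) with CS against 8.41 ± 0.15 (SD, n = 9) with AIR, a difference of -0.12 (SE 0.10, exact permutation p = 0.238). At lower numbers it was 8.46, 8.48 and 8.54 in AIR fetuses and from 7.61 through 8.25 to 8.61 in CS fetuses. CS male 1 was above the AIR fetuses and the other 7 below them, at a difference of -0.29 (SE 0.14) that did not pass the threshold (exact permutation p = 0.121). It did pass without CS male 1, at -0.35, and with the heart muscle covariate, at -0.37. Rian, a maternally expressed noncoding RNA downstream of Meg3, gave -0.23 (SE 0.11) in the lower range and 0.15 (SE 0.10) in the higher. Neither passed, while the gap between the ranges did, at -0.38 (SE 0.15, limma adjusted p = 0.606). In the array's numbering the Meg3 probe set used here lies among minus-strand genes, 8 of 9 with a known strand, although Meg3 is a plus-strand gene. Which strand it reads was not settled, so its values stand for RNA of that position.

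None of the other paternally expressed genes, Peg3, Plagl1 and Mest, passed the threshold over all fetuses. Peg3 was 8.51 ± 0.16 (SD, n = 12) with CS against 8.42 ± 0.15 (SD, n = 9) with AIR, at a difference of 0.09 (exact permutation p = 0.189). Plagl1 was 6.52 ± 0.14 (SD, n = 12) with CS against 6.42 ± 0.10 (SD, n = 9) with AIR, at a difference of 0.10 (exact permutation p = 0.0801), and its further probe set gave -0.03. That further probe set lies among minus-strand genes in the numbering, 15 of 15 with a known strand, while Plagl1 is a plus-strand gene. Mest, which differed least between exposures among the genes above the array medians, was 8.54 ± 0.11 (SD, n = 12) and 8.58 ± 0.06 (SD, n = 9), at a difference of -0.04 (exact permutation p = 0.321). Mir335, a microRNA gene inside Mest, gave -0.20 (SE 0.22) and did not pass.

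Paternally and maternally expressed genes had median differences of similar size. The median difference between CS and AIR was 0.09 over the 5 paternally expressed genes, which ranged from -0.12 for Dlk1 to 0.41 for Nnat. Over the 4 maternally expressed genes it was 0.08, from -0.12 for Meg3 to 0.21 for Grb10. That median lies between 0.14 for Cdkn1c and 0.03 for Phlda2, whose signal was near the bottom of the scale. No median was taken without Phlda2. The medians thus differed by 0.01. Over single AIR fetuses, the mean of the paternally minus that of the maternally expressed genes had an SD of 0.08. That spread between fetuses is not the error of the difference of medians, which was not estimated. In the lower range the medians were 0.06 and 0.15, and in the higher range 0.09 and 0.06, again with Phlda2 among the maternally expressed genes.

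**Figure D2:**
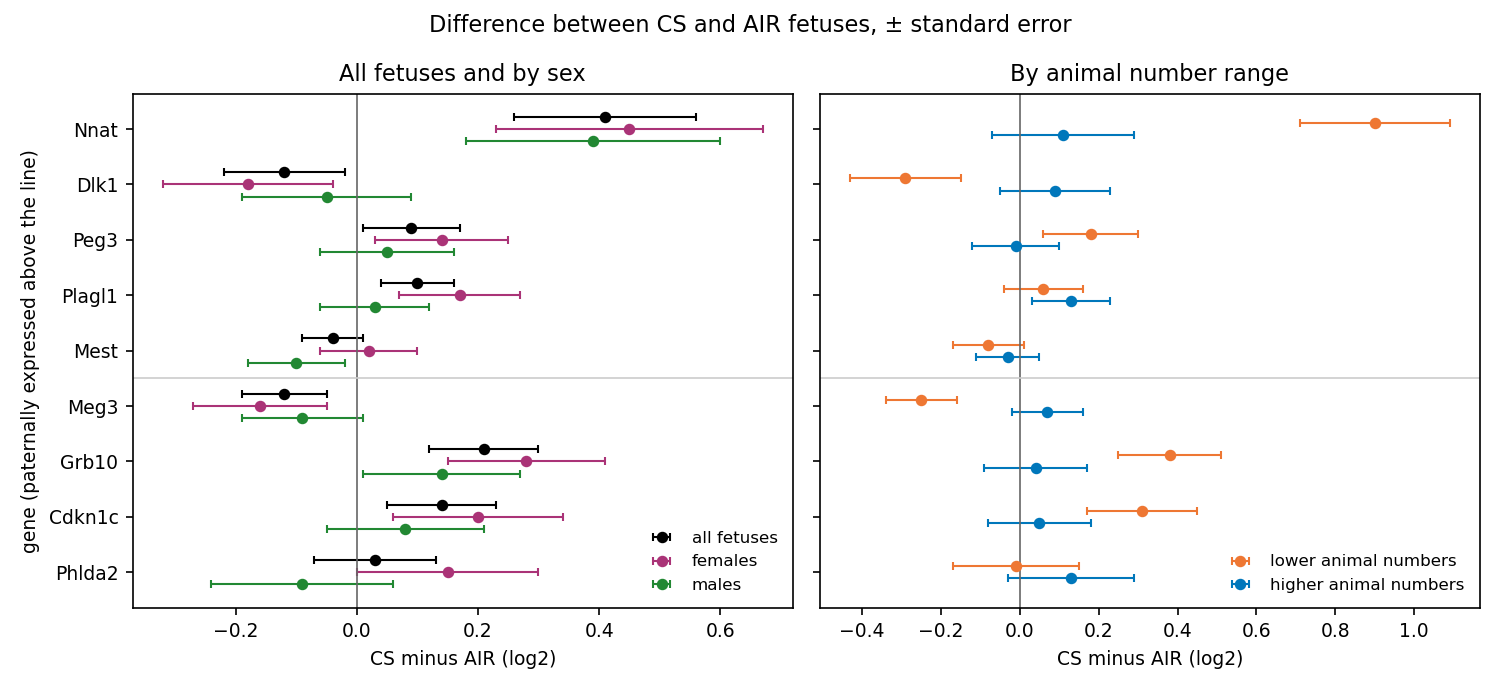
The horizontal axis gives the difference between CS and AIR on the log2 scale with its standard error, for all fetuses and by sex on the left and by animal number range on the right. Nnat stands farthest from 0, at 0.41 over all fetuses and 0.90 in the lower range, and paternally expressed genes (above the line) and maternally expressed genes (below it) spread over both sides of 0.

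By sex, Nnat was higher by 0.45 (SE 0.22) in females and by 0.39 (SE 0.21) in males, and neither difference passed the threshold, although both did without some single fetuses. Grb10 passed in females only by a narrow margin, at 0.28 (SE 0.13, limma p = 0.0497, exact permutation p = 0.0333), with 6 of 6 CS females above the AIR mean, and that pass was lost with any of 13 fetuses left out. In males Grb10 gave 0.14 (SE 0.13). Plagl1 in females was 6.57 ± 0.10 (SD, n = 6) with CS against 6.40 ± 0.05 (SD, n = 4) with AIR, with an exact permutation p of 0.0238, but it missed both limits, at 1.13-fold and a limma p of 0.0835 (adjusted p = 0.884). So 1 of the 9 genes passed in females, against 5.38% of all probe sets, and 0 in males, against 4.91%. The difference of the CS effect between females and males passed for 0 of the 9 genes, against 4.39% of all probe sets, and ran from -0.13 for Dlk1 to 0.23 for Phlda2. Female and male fetuses differed past the threshold in 0 of the 9 genes, against 2.47% of all probe sets. The largest gap between the sexes was that of Dlk1, at -0.12 (SE 0.10). Over the 45 exact tests of the 9 genes in 5 comparisons, 7 had a p under 0.05, unadjusted. The 5 comparisons share fetuses, so these tests are not independent, and no share over all genes was computed for them.

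The genes were also compared with each other over the 21 fetuses. Of 36 pairs, 1 had an adjusted p under 0.05 by a permutation test, that of Nnat and Grb10, with Pearson's r of 0.77 (adjusted p = 0.00252) and Spearman's rho of 0.76 (adjusted p = 0.0036). Correlation with Nnat was at least as strong for 0.176% of 9639 genes with a mean of at least 3. The pair kept together within CS fetuses (r = 0.71) and within AIR fetuses (r = 0.72), within females (r = 0.79) and within males (r = 0.76). Within the lower range r was 0.86, and within the higher range it was 0.52 with a permutation p of 0.123. Without AIR male 1 and AIR male 2, the fetuses farthest from the Nnat median, r was 0.74. Nnat and Grb10 lie on different chromosomes and are expressed from opposite parental copies.

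Dlk1 and Meg3 gave r = 0.54 (permutation p = 0.00775) and rho = 0.58 (permutation p = 0.0067), with adjusted p of 0.0747 and 0.108 over the 36 pairs. Correlation with Dlk1 was at least as strong for 5.08% of genes. Within females r was 0.73 and within males 0.26, within CS fetuses 0.46 and within AIR fetuses 0.58. Within the lower and the higher range it was 0.51 and 0.45. Without CS female 8 and AIR female 9, those farthest from the Dlk1 median, it was 0.59. Cdkn1c and Phlda2, neighbours on chromosome 7, gave r = 0.02 (permutation p = 0.934) and rho = 0.12 (permutation p = 0.601), and r = 0.36 without CS female 7 and CS female 8. With Phlda2 near the bottom of the scale, these values say little about the pair.

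**Figure D3:**
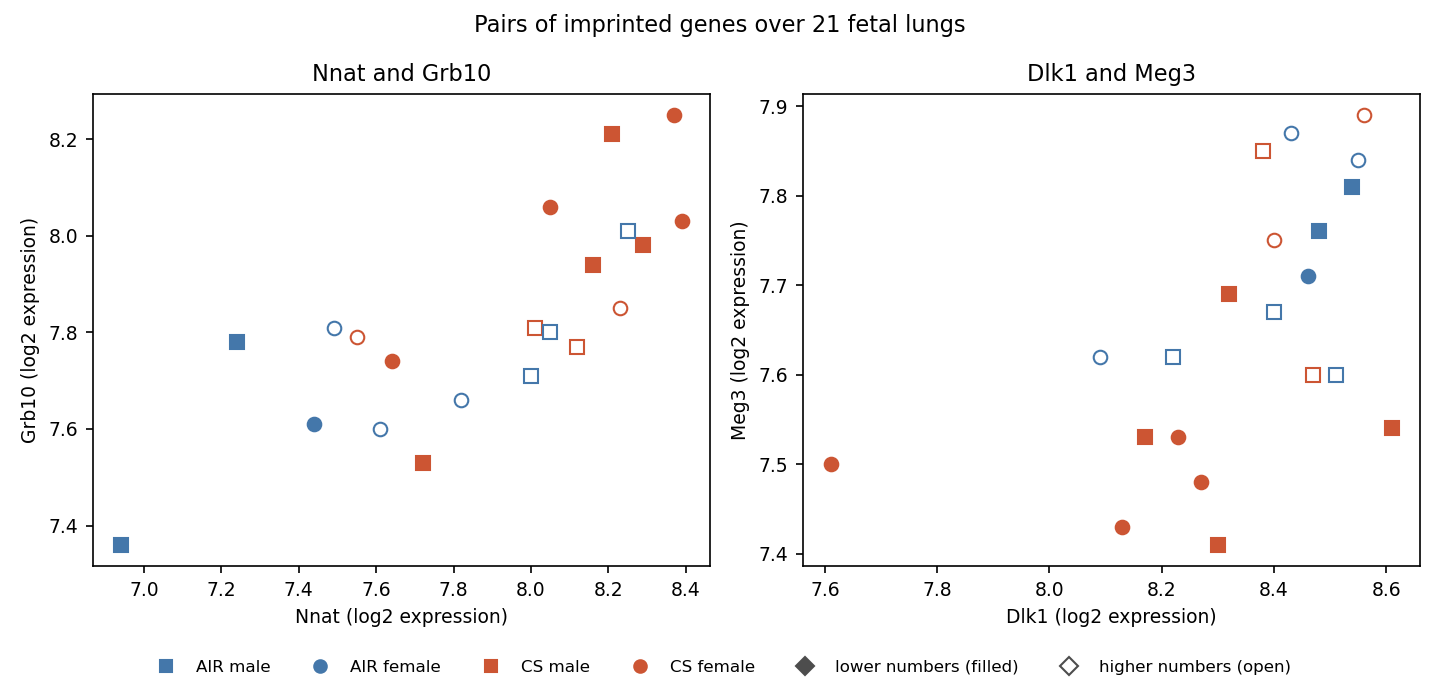
Each point is 1 fetus, with log2 expression of Nnat and Grb10 on the left and of Dlk1 and Meg3 on the right. Colours mark exposure, shapes sex, and filled points the lower animal numbers. Grb10 rises with Nnat (r = 0.77), with AIR male 1 lowest in both, and Meg3 rises with Dlk1 more loosely (r = 0.54).

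Marker lists moved along with these differences. All 14 mitosis genes measured were higher in CS lungs past the threshold. Of 10 genes typical of surfactant-producing alveolar type II cells, 7 were lower and 0 higher. Over all genes, 2.46% were higher and 1.93% lower past the threshold. The marker lists were chosen with earlier results of these data known. Among lower numbers the mean of the mitosis genes ran from 4.40 to 4.81 in AIR and from 5.21 to 6.07 in CS fetuses. The mean of the type II genes ran there from 8.80 to 8.83 in AIR and from 7.59 to 8.43 in CS fetuses. Neither overlapped, in contrast to the higher range, where the mitosis mean was 4.61 to 5.49 in AIR and 5.05 to 5.20 in CS fetuses and the type II mean 8.26 to 8.65 and 8.42 to 8.63. Sftpc, a surfactant protein, averaged 11.43 in CS and 11.54 in AIR lungs, and Sftpd, another, 3.97 and 4.53.

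Over the 21 fetuses, 18 correlations of the 9 genes with these list means were computed. Meg3 followed the type II genes with r = 0.77 (permutation p = 3e-05, adjusted p = 0.00054) and rho = 0.80 (permutation p = 2e-05, adjusted p = 0.00036). That held within CS fetuses (r = 0.79) and the lower range (r = 0.86), and was 0.46 within AIR fetuses, 0.59 within the higher range and 0.73 without the 2 fetuses farthest from the type II median. Grb10 ran against the type II genes, with r = -0.74 (adjusted p = 0.00078) and rho = -0.63 (adjusted p = 0.00813), and was -0.70 within CS fetuses, -0.56 within AIR fetuses, -0.79 and -0.27 within the lower and higher range, and -0.69 without the same 2 fetuses. Of 9630 genes with a mean of at least 3, 2.62% were related to the type II mean at least as strongly as Meg3 and 3.43% at least as strongly as Grb10. Both genes were also related to the mitosis genes. Meg3 gave r = -0.74 and rho = -0.72 with them (adjusted p = 0.00078 and 0.0021), -0.73 within CS and -0.62 within AIR fetuses, -0.90 and -0.33 within the lower and higher range, and -0.74 without the 2 fetuses farthest from the mitosis median. Grb10 gave r = 0.67 and rho = 0.57 (adjusted p = 0.00409 and 0.0192), 0.51 and 0.57 within CS and AIR fetuses, 0.72 and 0.31 within the ranges, and 0.54 without those 2. Relations to the mitosis mean at least as strong were found for 4.05% of 9626 genes for Meg3 and 7.07% for Grb10.

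Nnat gave r = -0.61 and rho = -0.64 with the type II genes, with adjusted p of 0.00846 and 0.00813. Within CS fetuses that r was -0.25 and within AIR fetuses -0.83, within the lower range -0.76 and within the higher -0.25, and without the 2 farthest fetuses -0.68. With the mitosis genes Nnat gave r = 0.63 and rho = 0.64 (adjusted p = 0.00846 and 0.00813), 0.16 within CS and 0.75 within AIR fetuses, 0.75 and 0.47 within the lower and higher range, and 0.56 without the 2 fetuses farthest from the mitosis median. Dlk1 rose with the type II genes (r = 0.55, rho = 0.74, adjusted p = 0.0256 and 0.00189) and Peg3 fell with them (r = -0.61, rho = -0.52, adjusted p = 0.00846 and 0.0338), though Peg3 gave -0.12 within AIR fetuses and -0.38 without the 2 farthest. Relations of this strength were common among genes. For the type II mean 9.67% were at least as strong as Nnat, 13.9% as Dlk1 and 9.41% as Peg3, and for the mitosis mean 8.95% were at least as strong as Nnat. The part of these lists in the differences between CS and AIR was not tested.

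**Figure D4:**
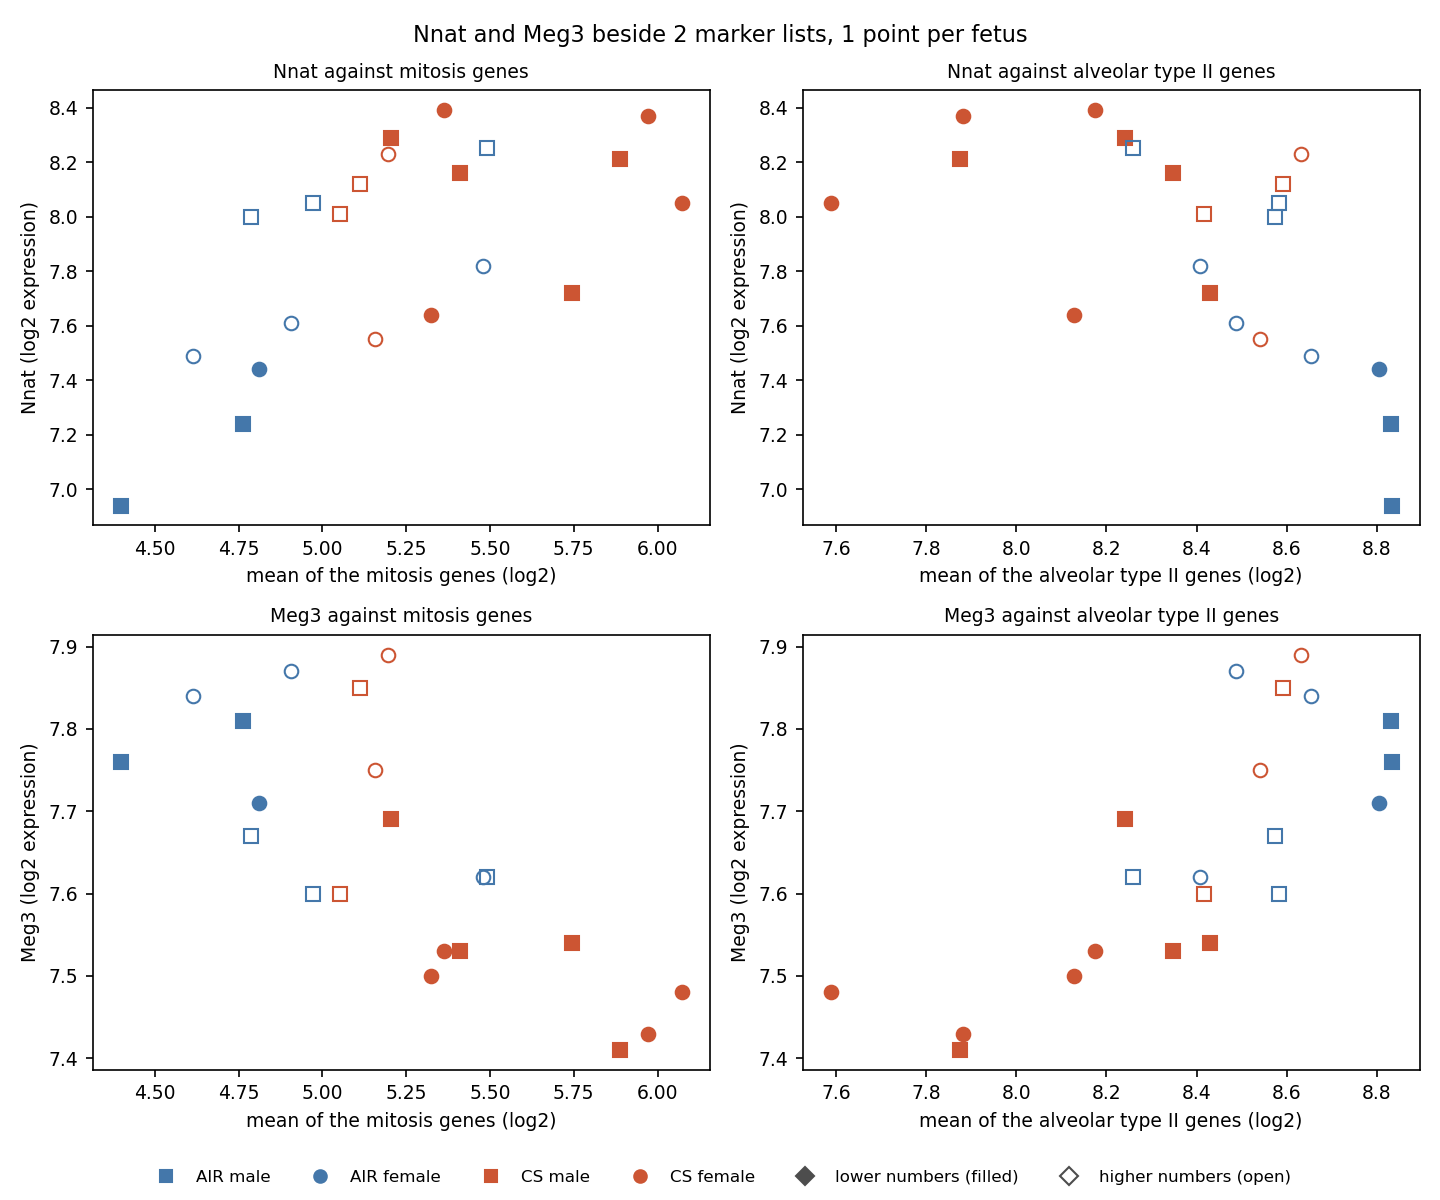
Nnat (top) and Meg3 (bottom) in log2 expression are plotted against the mean log2 expression of the mitosis genes (left) and of the alveolar type II genes (right), with 1 point per fetus and filled points for the lower animal numbers. Nnat lies lowest and the type II mean highest (8.80 to 8.83) in the 3 AIR fetuses of the lower range, and Meg3 rises with the type II genes (r = 0.77).

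Lists of other tissues were uneven over the arrays, and 13 of 21 arrays stood high in at least 1 of them. Among the AIR fetuses of the lower range, AIR male 1 stood high in the oesophagus list and AIR male 2 in the heart muscle list. Arrays high in none of the lists were 5 CS and 1 AIR in the lower range, and 1 CS and 1 AIR in the higher. The heart muscle mean ran from 4.29 to 7.69 in CS and from 4.64 to 7.43 in AIR fetuses. Of its 10 genes, 0 were higher and 3 lower in CS lungs past the threshold, against 2.46% and 1.93% of all genes. The list of neuroendocrine and neural genes, in which cells Nnat is also known, differed by 0.01 between CS and AIR, with 0 of 8 genes past the threshold in either direction. In the 8 arrays high in none of the lists, 6 CS and 2 AIR, Nnat differed by 0.39 and no longer passed (limma p = 0.149), and Peg3 passed instead, at 0.37. After adjusting for the heart muscle mean, Nnat in the lower range was higher by 0.86 (limma adjusted p = 0.0692).

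Of 42 other imprinted genes listed, 38 were measured. Over all fetuses their median difference was 0.01. Past the threshold 1 of them was higher (2.63%) and 0 lower, against 2.46% and 1.93% of all genes. The gene was Igf2, the paternally expressed growth factor next to H19, at 7.08 ± 0.18 (SD, n = 12) with CS against 6.80 ± 0.29 (SD, n = 9) with AIR. The difference was 0.29 (SE 0.10, exact permutation p = 0.012, limma adjusted p = 0.525), and 12 of 12 CS fetuses were above the AIR mean. AIR male 5, at 7.50, was the highest of all fetuses. The fold limit was missed when CS male 3, CS female 9 or AIR male 1 was left out, at 0.24 to 0.26. Within the lower range Igf2 was from 6.41 to 6.78 in AIR and from 6.80 to 7.42 in CS fetuses. These did not overlap, as for 1.35% of all probe sets with CS higher, and the difference was 0.51 (SE 0.15). In the higher range Igf2 gave 0.09 (SE 0.14).

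A few imprinted genes outside the clusters of the members passed the threshold in single comparisons, each with a limma adjusted p of at least 0.601. Counted over all 38 genes, those in the clusters of members included, 2 were higher and 0 lower in CS females, against 2.85% and 2.65% of all genes. These were Slc38a4 and Igf2, the latter at 0.36 (SE 0.16, limma adjusted p = 0.848). In CS males it was 0 and 1, against 2.53% and 2.19%. In the lower range 1 was higher, Igf2, and 1 lower, Kcnq1, against 4.24% and 5.67%. In the higher range it was 0 and 1, against 2.24% and 1.64%. Females were above males for 2 and below for 0, against 0.852% and 0.681%. The CS effect was higher in females than in males for 1 and lower for 0, against 1.76% and 1.97%. It was higher in the lower than in the higher range for 1 and lower for 2, Rian and Kcnq1, against 3.08% and 4.59%. Slc38a4, an amino acid transporter, was higher in CS females by 0.51 (SE 0.20). Peg13, a noncoding RNA, was lower in CS males by -0.40 (SE 0.14), and its CS effect differed between females and males by 0.66 (SE 0.21). Mcts2 and Mkrn3 were higher in females than in males, by 0.33 and 0.28. Asb4 was lower with CS in the higher range by -0.36 (SE 0.17), and its effect differed between the ranges by 0.61 (SE 0.24). Asb4 and Mkrn3 had means of 1.7 and 1.66, below the array medians.

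Genes beside the 9 members gave small differences over all fetuses. Slc22a18, a transporter gene between Cdkn1c and Phlda2, gave 0.20 (SE 0.09, limma p = 0.0445) and was under the fold limit. Kcnq1, Kcnq1ot1, Osbpl5 and Ascl2 of the same cluster ran from -0.08 to -0.03. Kcnq1 was lower in the lower range by -0.33 (SE 0.15), past the threshold, with 0.22 (SE 0.14) in the higher, and the ranges differed past the threshold by -0.55 (SE 0.21). Blcap, in whose span Nnat lies, gave -0.10 (SE 0.05, exact permutation p = 0.028), the opposite sign to Nnat, and missed both limits at 1.07-fold and a limma p of 0.0887. Copg2 and Klf14 near Mest gave 0.00 and 0.07, Zim1 and Usp29 near Peg3 -0.02 and 0.12, and Cobl and Ddc near Grb10 0.04 and 0.03. Dio3, at the far end of the Dlk1 cluster, gave -0.05, and Mir370 of that cluster -0.29 (SE 0.25), and neither passed. Ascl2, Dio3 and Usp29, with means of 1.33, 1.41 and 1.58, and Mir335, with 1.88, were below the array medians, so their differences say little.

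Genes whose values followed a member most closely were looked for among 9640 genes with a mean of at least 3, by Pearson's r over the 21 fetuses after subtraction of each exposure group's mean, as a description. For Nnat these were Cep78, Cytl1 and Ext2, with r from 0.75 to 0.76. For Grb10 they were Frem2, Clu and Foxp2, from 0.85 to 0.86. For Meg3 they were Tmbim1, Kcnj15 and Slco2a1, from 0.80 to 0.87. Peg3 ran closest with Ppp1r3c (r = 0.86), Cdkn1c with Ruvbl2 (0.86), Mest with Bahcc1 (0.83), Dlk1 with Lrrc8a (0.81) and Plagl1 with Cdk11b (0.73).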

How the data were processed

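Arrays were deposited as log2 intensities, 1 per probe set, which the authors made with Affymetrix Expression Console 1.3.0.187 by RMA (background correction, sketch-quantile normalization, median polish). The study left out 3 AIR arrays. Of 41345 probe sets, 802 redundant ones were removed. By the platform annotation 23521 name 1 gene, 1820 more than 1 and 16004 no gene. CS and AIR were compared with limma 3.58.1 (lmFit, eBayes) in R 4.3.3 with sexes merged, then by sex and by animal number range, with Benjamini-Hochberg adjustment over 40543 probe sets. Exact two-sided permutation tests over fetuses were run in Python 3.11.15, and correlations used 100000 resamples (all orders under 10 fetuses). The precision is limited by the number of arrays. The members and lists were chosen with earlier results of these data known, and the correlations with marker lists and the comparison without arrays high in other tissue were added after the data were seen. Named genes were the members, imprinted genes past the threshold or in a member's cluster, hosted microRNA genes and the 3 genes most like each member, the closest of which are given. Alternatives changed the probe sets, variances, normalization, weights, blocks, covariates and arrays. On simulated arrays of 41345 probe sets, 92% of changes of 0.5 were called in CS against AIR and 76% in the lower range. Of unchanged probe sets, 2.53% and 4.47% were called. The simulated noise was independent between fetuses, without litters or other tissue, so these shares do not carry over fully to the real arrays.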

Additional observations from a re-analysis of the deposited data

Results flagged for a closer look

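Meg3 in CS male 4 was 7.69, apart from the other 7 CS fetuses of the lower animal numbers, the nearest of which was at 7.54. This was the 1 fetus to stand apart in 72 groups of the measured genes, where chance sets apart about 1 group in 20. The difference between CS and AIR was larger in the lower than in the higher animal numbers for Nnat by 0.79 (limma p = 0.0064). For Meg3 the difference between CS and AIR was lower in the lower animal numbers by -0.32 (limma p = 0.0173). Both gaps between the ranges failed the adjustment over all probe sets, and their cause was not tested.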

How the results depend on the processing

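Over all fetuses the count of 1 gene of 9 past the threshold was the same under every alternative except the false discovery rate of 10%, which gave 0, though without the arrays high in other tissue it was Peg3 and not Nnat. The replicate numbers of CS and AIR fetuses did not pair them, with correlations of same-numbered fetuses from -0.072 to 0.132 over 9 pairs and 1 of 9 AIR fetuses closest to its own number. The replicate block left the count at 1 and Nnat at 0.41. For the other imprinted genes the count of 1 became 0 at the false discovery rate, 2 with the heart muscle covariate and 2 without the arrays high in other tissue, and 0 to 1 with 1 fetus left out. In females the count of 1 became 0 at the false discovery rate, with arrays centred on their medians and with the skeletal muscle covariate, 2 with array weights and 2 with the mean of all probe sets, and 0 to 3 with 1 fetus left out. In males the count of 0 became 1 with the number range as a block and 0 to 1 with 1 fetus left out. In the lower range the count of 3 became 1 at the false discovery rate and 1 to 4 with 1 fetus left out, the 1 being without AIR male 1. The difference between the ranges gave 0 at the false discovery rate, 1 with the mean of all probe sets, and 2 to 4 with 1 fetus left out, the 4 being without CS male 1.

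Values near 0 changed sign under some settings, and none of these was past the threshold. Plagl1 was -0.03 with its further probe set, whose strand is unsettled, and with the mean of all probe sets -0.07 in males and -0.13 in the lower range. Phlda2 was -0.01 without the arrays high in other tissue, and with the heart muscle covariate Cdkn1c was -0.04 in males and Phlda2 0.02 in the lower range. With 1 fetus left out, Phlda2 ran from -0.03 to 0.07 over all fetuses, from -0.11 to 0.06 in the lower range, from -0.03 to 0.21 in the higher and from -0.24 to 0.02 for their difference. Mest ran from 0.00 to 0.05 in females and from -0.08 to 0.05 in the higher range. In males Peg3 ran from -0.01 to 0.10 and Plagl1 from -0.02 to 0.08, and in the higher range Peg3 ran from -0.06 to 0.03 and Cdkn1c from 0.00 to 0.11. Females against males, Mest ran from -0.01 to 0.03, Meg3 from 0.00 to 0.06, Grb10 from -0.02 to 0.05 and Cdkn1c from 0.00 to 0.09. The difference between the sexes for Nnat ran from -0.08 to 0.25. The correlation of Cdkn1c and Phlda2 was 0.00 over deviations from the exposure means and -0.07 to 0.17 with 1 fetus left out. That of Dlk1 and Meg3 stayed between 0.50 and 0.62, and the gap between paternal and maternal medians between -0.04 and 0.04. H19 and Igf2 could not be correlated. The precision of every value is limited by the number of arrays, 3 of them AIR in the lower range, and by low signal for Phlda2, Ascl2, Dio3, Usp29, Asb4, Mkrn3 and Mir335.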

Other observations

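Probe sets annotated to more than 1 gene were kept out of the comparisons, since their RNA cannot be assigned to 1 of the genes. The probe set shared by H19 and Mir675 was higher in CS lungs by 0.35 (SE 0.14, exact permutation p = 0.0253 over 21 fetuses). In the lower animal numbers it ran from 7.92 to 8.27 in AIR and from 8.28 to 9.43 in CS fetuses, with no overlap and a difference of 0.72 (SE 0.18, limma adjusted p = 0.0751). In the higher it gave -0.07 (SE 0.17). The probe set shared by Meg3 and Mir770 gave -0.16 (SE 0.08) over all fetuses, -0.34 (SE 0.11) in the lower range with no overlap, and 0.03 (SE 0.10) in the higher. The probe set shared by Meg3, Mir1906-1 and Mir1906-2 gave -0.59 (SE 0.22), -1.35 (SE 0.24, limma adjusted p = 0.0157) and 0.21 (SE 0.23). For that probe set too, CS and AIR fetuses of the lower range did not overlap. Such gaps in the lower range were found for 1.35% of all probe sets with CS higher and 1.83% with CS lower. The probe set shared by Peg3 and its antisense RNA Peg3os gave 0.13 (SE 0.08), 0.15 (SE 0.12) and 0.09 (SE 0.12).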
